A study of Mus musculus with 6 samples.

Results

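Ribosomal protein probes on Illumina MouseWG-6 v2.0 beadchips were compared between mouse embryonic stem (ES) cells depleted of Atad2, a bromodomain AAA ATPase of chromatin, and control ES cells. The members were the probes whose platform symbol named a cytosolic ribosomal protein (Rpl or Rps with a number, the stalk proteins Rplp0, Rplp1 and Rplp2, or Rpsa). S6 kinases, Rpl7l1, Rps19bp1 and annotated pseudogenes were left out. This gave 63 of the 19057 genes named on the array, read by 93 of its 45281 probes. Changes were taken from the 77 probes, of 57 genes, that were above background (detection p-value under 0.05) on at least 3 of the 6 arrays, out of 18085 such probes in all.

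The shAtad2 cells stably expressed a short hairpin RNA against Atad2, and the shCtrl cells an inactive hairpin. The paper describes that control both as an inactive hairpin against Atad2 and as non-targeting. Both were 46C mouse ES cells whose endogenous Atad2 carried an affinity tag, the product of 1 selected clone. Both were transduced with the lentiviral pLKO.1 vector, selected with puromycin and kept as stable pools of cells, not clones. RNA was taken on day 3 without LIF, the cytokine that holds mouse ES cells undifferentiated, from 3 samples in each group. The labels do not state that replicates were grown separately, so a p-value here measures only how far these samples spread, and that spread may be technical.

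A ribosome is built from a small subunit, which reads the mRNA, and a large subunit, which joins amino acids, each an assembly of ribosomal RNA and many different proteins. Cells need these proteins in matched amounts, and growing cells such as ES cells spend much of their transcription and translation on them. Their mRNAs typically begin with a cytidine and a run of pyrimidines, the terminal oligopyrimidine (TOP) tract, through which mTOR and Larp1 control how much of each mRNA is translated. That control acts on translation, which an array of total RNA does not read.

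The starts of these genes were searched for the letters of a pyrimidine tract. Promoter windows of RefSeq (build GRCm38.p6, 250 bases before to 50 after an annotated start) were matched for 52 of the 63 genes, in 62 windows, and 11 genes were not matched. The letters CTTTC, 1 spelling of the start of such a tract, stood on the gene's own strand within 50 bases of the annotated start in 30 of 62 windows (48.4%), against 12.8% of 32851 windows of all genes. Many matches lay away from the annotated start, as at base 46 in Rps23 and 41 bases before it in Rpl26. By that start, no TOP tract begins there. In Rps19 and in Rps21 overlapping windows counted the same match again. The letters CCGGAAG, the core of an ETS factor motif, occurred on either strand of 24 of 62 windows (38.7%), against 8.86% of all. AAGATGGCG, the core of the YY1 motif, occurred in 1 (1.61%), against 1.40% of all. A match is a description of the letters and not evidence that a factor binds. The 30 bases around the start, 15 on each side, are shown for 4 genes with CTTTC, in capitals, and for 4 genes without it in these bases. The last 4 were picked because each had a kept probe whose groups did not overlap, so they show no link between letters and change.
Rpl38 (chr11:114668565-114668594, plus strand): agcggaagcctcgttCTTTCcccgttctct
Rplp2 (chr7:141447636-141447665, plus strand): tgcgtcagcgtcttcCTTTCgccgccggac
Rps10 (chr17:27635230-27635259, minus strand): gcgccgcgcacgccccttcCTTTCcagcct
Rpl28 (chr7:4792950-4792979, plus strand): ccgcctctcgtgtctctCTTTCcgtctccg
Rplp0 (chr5:115559452-115559481, plus strand): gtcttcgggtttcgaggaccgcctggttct
Rpl14 (chr9:120571502-120571531, plus strand): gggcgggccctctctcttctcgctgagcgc
Rpl23 (chr11:97782425-97782454, minus strand): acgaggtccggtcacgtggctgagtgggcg
Rpl6 (chr5:121204486-121204515, plus strand): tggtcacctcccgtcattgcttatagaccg
In Rpl38 and Rplp2 the tract opened at the annotated first base. Rpl14 had a long pyrimidine run of another spelling, and Rpl6 had CTTTC at base 36 of the transcript, outside the letters shown.

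The 6 arrays were alike in depth of signal, with a median unnormalized intensity between 130.0 and 138.9 and between 17792 and 18513 probes above background. Principal component 1 (45.6% of the variance) held the third replicates of both groups, at 34.4 (shAtad2) and 34.9 (shCtrl), apart from the other 4 arrays, at -20.8 to -15.2, and component 2 (21.3%) separated the groups. The array read Atad2 at 5.69, 5.64 and 5.41 log2 units in shAtad2 cells, against 6.28, 6.48 and 6.39 in shCtrl cells, a difference of -0.80 (SE 0.15), or -0.27 without background correction, that limma did not call after adjustment over all probes (adjusted p = 0.445). A second Atad2 probe was not above background. All 8 ES cell marker genes looked for were above background (12 of 13 probes, 9 lower and 3 higher in shAtad2 cells, median change -0.17, none past the threshold). Of 15 fibroblast probes, 1 for Dcn and 1 for Thy1 were above background, at 0.78 (SE 0.25, unadjusted p = 0.0149 and adjusted p = 0.573 in limma) and 0.22 (SE 0.40) with overlapping groups, and those of Col1a1, Col1a2, Col3a1, Postn and Lum were not. Of 13 endoderm probes 4 were above background (2 higher and 2 lower, changes of -0.98 to 0.20). Of 9 trophectoderm probes 4 were, for Krt8, Krt18, Cdx2 and Krt7, all lower in shAtad2 cells (changes of -1.19 to -0.01, median -0.38). Of these 4, 1 had an unadjusted p under 0.05 in limma (7.36% of all probes), with a smallest adjusted p of 0.672. With the replicate number as a block in limma, 3 had one (12.2% of all probes), and the smallest adjusted p was 0.0814. The part of these cells in the ribosomal protein values was not tested. In bulk RNA, fewer cells of a type and less RNA per cell cannot be told apart.

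Ribosomal protein probes were among the brightest on the array. After quantile normalization they differed little between shAtad2 and shCtrl cells, as did other probes as bright. At a log2 intensity of 13 or more, the median absolute change was 0.05 for members and 0.06 for other probes. With cyclic loess in place of quantile normalization, the median change of the members at 13 or more was 0.069. Of the 77 probes, 75 were above background on all 6 arrays, and 41 had a mean normalized log2 intensity of 14 or more. The 93 probes held 6.11%, 5.92% and 5.60% of the summed unnormalized intensity in shAtad2 cells, against 5.73%, 5.71% and 5.83% in shCtrl cells. The highest share and the lowest were both in shAtad2 arrays, and the groups overlapped. Brightness depends on the probe as well as on the RNA, so a difference in brightness between probes is not read as a difference in RNA.

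No ribosomal protein probe passed an adjusted p of 0.05 in limma, and over all 18085 probes tested none did (0%). The smallest adjusted p of a ribosomal protein probe was 0.53. At an unadjusted p under 0.05 there were 3 of 77 probes, against 7.36% of all probes. They were 1 higher in shAtad2 cells (3.86% of all probes) and 2 lower (3.50% of all probes). Higher values in shAtad2 cells were seen for 31 probes and lower values for 46, where 50.2% of all probes were higher. The median log2 change was -0.02, against 0.00 over all probes, and the quartiles were -0.11 and 0.04. The split by direction followed the normalization, since 43 of 77 were higher, with a median of 0.02, when cyclic loess replaced quantile normalization.

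**Figure D1:**
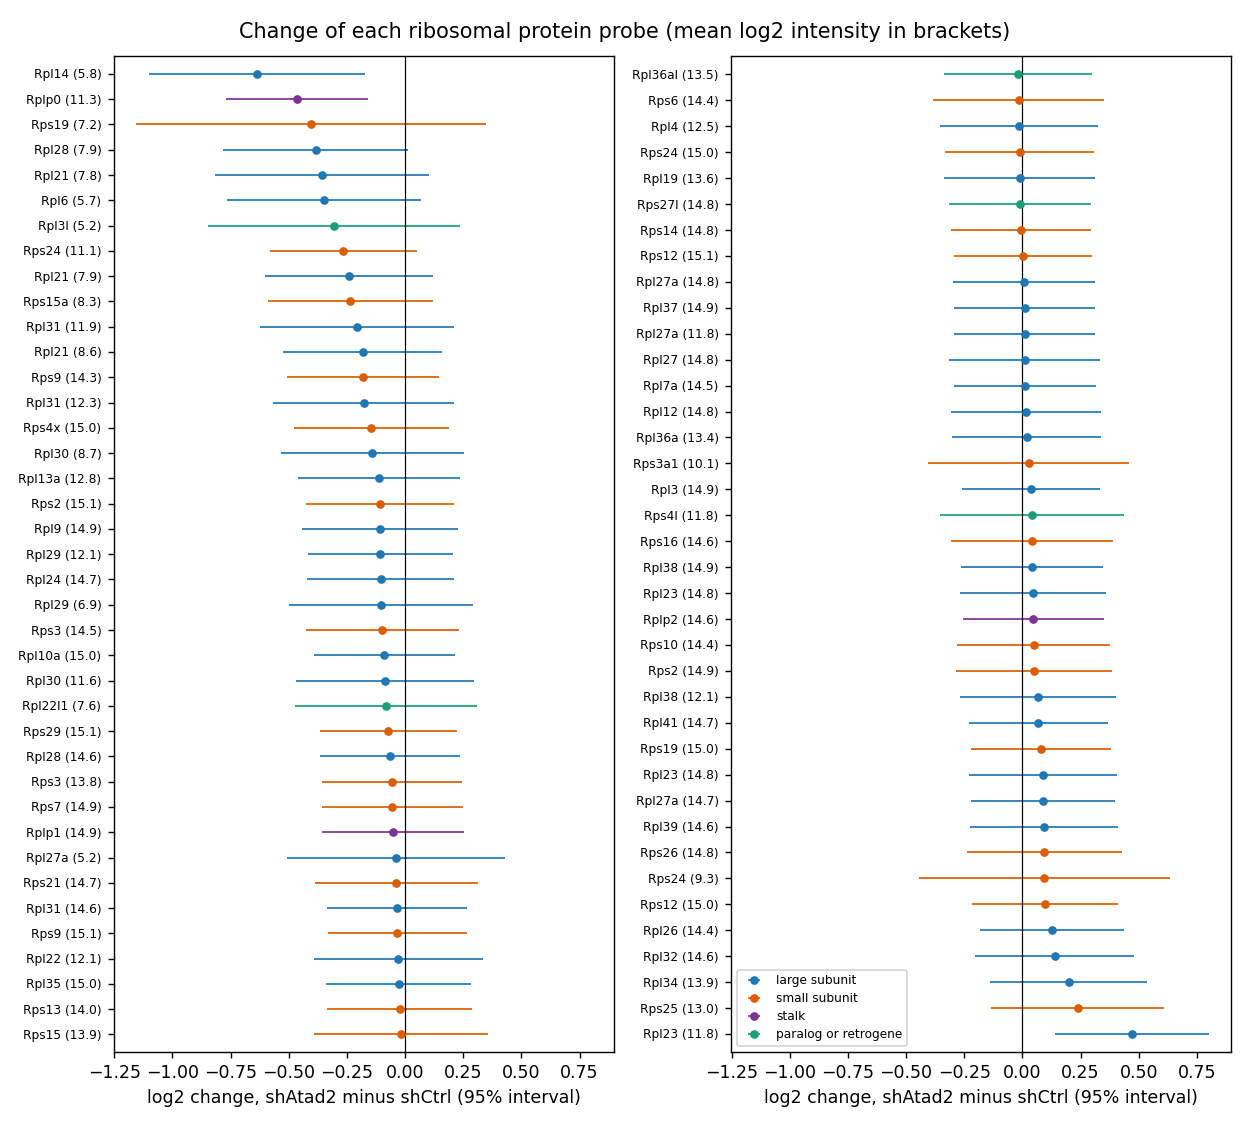
Log2 change (shAtad2 minus shCtrl, horizontal axis) with its 95% interval from limma for each of the 77 ribosomal protein probes, ordered by change and coloured by class, with the mean log2 intensity after each name. The intervals of 74 probes hold 0, and those of Rpl14, Rplp0 and a dim Rpl23 probe do not.

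The median absolute change was 0.07 log2 units for the ribosomal protein probes and 0.14 over all probes, with median standard errors of 0.14 and 0.18. The median SD among the 3 arrays of a group was 0.08 in shAtad2 and 0.10 in shCtrl cells, against 0.20 and 0.21 over all probes. The 95% interval of the change lay within 0.5 log2 units of 0 for 56 of 77 probes, where 31.3% of all probes met this, and within 1 log2 unit for 75, where 92.4% did. An absolute change under 0.2 was found for 64 probes. The other 13 lay between -0.64 and 0.47. Other bright probes were as tight. For the 333 other probes at a log2 intensity of 13 or more, the median absolute change was 0.06, with a median SE of 0.14. Their median SD was 0.09 in shAtad2 and 0.10 in shCtrl cells, and 270 had an interval within 0.5. The 49 members as bright had a median absolute change of 0.05. The 28 dimmer members had 0.16, against 0.15 for other probes under 13.

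Each class of proteins had a median change near 0. The 42 large subunit probes were higher in shAtad2 cells for 19 and lower for 23 (median change -0.02), and the 27 small subunit probes were higher for 10 and lower for 17 (median change -0.02). The 3 stalk probes, 1 per gene, were higher for Rplp2 and lower for Rplp0 and Rplp1. The 5 probes of paralogs and retrogenes were higher for 1 and lower for 4 (median change -0.02).

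The members were also divided by brightness. The split at a log2 intensity of 13 was chosen after the values were seen and carries no test. Of the 49 probes at 13 or more, 25 were higher and 24 lower in shAtad2 cells, with a median change of 0.00 and a range of -0.18 to 0.24. Of the 28 dimmer probes, 22 were lower and 6 higher, and their median change was -0.13. They belonged to 21 genes, so some genes were counted more than once. With only the brightest probe of each gene, 14 members were under 13, with a median change of -0.109. The median of all other probes under 13 was 0.00, as was that of the 333 other probes at 13 or more. The dim members had a median of -0.06 to -0.19 under the other ways of processing and stayed below 0. The bright members had a median of 0.07 with cyclic loess.

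**Figure D2:**
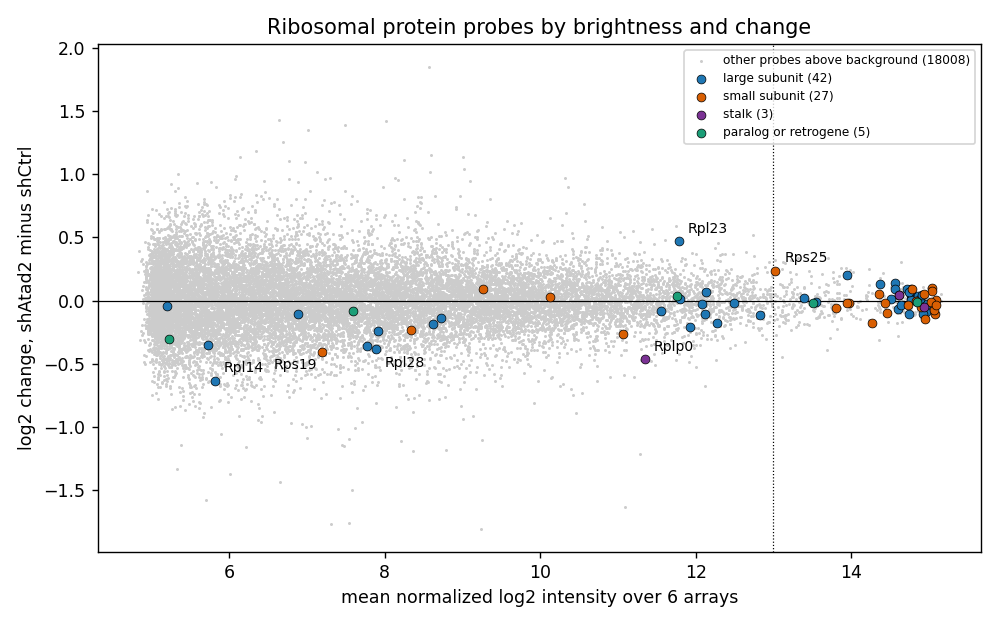
Log2 change (shAtad2 minus shCtrl, vertical axis) against mean normalized log2 intensity over the 6 arrays for ribosomal protein probes, coloured by class, and for all other probes above background (grey), with a dotted line at 13. Of the 49 ribosomal protein probes right of the line, 25 lie above 0 and 24 below, and of the 28 left of it, 22 lie below 0.

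Of the brightest members, Rps9, a small subunit protein that contributes to the accuracy of decoding, had 15.05, 15.11 and 15.09 in shAtad2 cells, against 15.18, 15.10 and 15.07 in shCtrl cells on its brightest probe, a change of -0.03 (SE 0.13). Rps12 had 15.10, 15.08 and 15.08 in shAtad2 cells, against 15.14, 15.03 and 15.09 in shCtrl cells, a change of 0.00 (SE 0.13). Rps2, which lines the mRNA entry of the small subunit, had 14.92, 15.04 and 15.13 in shAtad2 cells, against 15.09, 15.22 and 15.10 in shCtrl cells, a change of -0.11 (SE 0.14). The groups overlapped for all 3, and the 95% intervals of the changes were -0.33 to 0.26, -0.30 to 0.30 and -0.42 to 0.21. These probes lay near the top of the scale. The brightest ribosomal protein probe read between 33754 and 39900 on the arrays before normalization, where the brightest of all probes read between 35458 and 41176, and how far that compresses a change was not tested.

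Groups that did not overlap were found for 7 of the 77 probes (9.09%), against 12.9% over all probes. In 2 of them every shAtad2 array was above every shCtrl array (6.70% of all probes), and in 5 every shAtad2 array was below (6.23% of all probes). With cyclic loess 13 of 77 did not overlap (16.9%), against 13.1% of all probes.

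Rplp0, the base of the stalk on which elongation factors dock and a common reference gene in RT-qPCR, had the smallest p-value. It read 11.18, 11.07 and 11.08 in shAtad2 cells, against 11.62, 11.49 and 11.61 in shCtrl cells. The shAtad2 arrays were all below the shCtrl arrays and each group was tight, and the change of -0.46 (SE 0.13), or 1.38-fold, had an unadjusted p of 0.00786 and an adjusted p of 0.53 in limma. It lay between -0.51 and -0.44 when any 1 array was left out. A second Rplp0 probe was above background on 1 shCtrl array and no other. The remaining stalk proteins, which bind Rplp0 in pairs, did not share its size, with a change of -0.05 (SE 0.13) for Rplp1 and of 0.05 (SE 0.13) for Rplp2.

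Rpl14, a large subunit protein, was read by a dim probe. It read 5.65, 5.10 and 5.73 in shAtad2 cells, against 6.34, 6.07 and 5.98 in shCtrl cells. The groups did not overlap, though the second shAtad2 array lay well below the others, and the change of -0.64 (SE 0.20), or 1.55-fold, had an unadjusted p of 0.0134 and an adjusted p of 0.565 in limma. It was the widest change of a member in this fit, but was -0.20 without background correction and -0.22 with the deposited processed values, where Rplp0 and Rpl23 were wider. The same dim range held Rpl6, a large subunit protein too. It read 5.20, 5.76 and 5.68 in shAtad2 cells, against 5.82, 6.01 and 5.86 in shCtrl cells, with a change of -0.35 (SE 0.18) that was -0.17 without the first shAtad2 array and -0.10 without background correction. The groups came within 0.1 log2 units of each other without overlapping.

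Rpl23, a large subunit protein that also binds and restrains the p53 ligase Mdm2, had the largest higher value. Its dimmest kept probe read 12.10, 12.00 and 11.94 in shAtad2 cells, against 11.71, 11.49 and 11.44 in shCtrl cells. All shAtad2 arrays were above all shCtrl arrays, and the change of 0.47 (SE 0.14), or 1.38-fold, had an unadjusted p of 0.0111 and an adjusted p of 0.546 in limma. The other kept probes of the gene, both bright, did not show it, with changes of 0.05 (SE 0.14) and 0.09 (SE 0.14). On these the groups overlapped, and their 95% intervals ran from -0.27 to 0.36 and from -0.23 to 0.40.

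Rpl34 and Rps25 followed among the higher probes. Rpl34, of the large subunit, read 14.08, 14.02 and 14.04 in shAtad2 cells, against 13.89, 13.99 and 13.65 in shCtrl cells, a change of 0.20 (SE 0.15) without overlap, or 0.10 without the third shCtrl array. Rps25, a small subunit protein needed for internal initiation on some viral RNAs, read 13.19, 13.02 and 13.23 in shAtad2 cells, against 13.01, 13.06 and 12.66 in shCtrl cells. The groups overlapped, the third shCtrl array was again the lowest, and the change was 0.24 (SE 0.16), or 0.11 without that array. The unadjusted p-values of Rpl34 and Rps25 in limma were 0.21 and 0.179.

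**Figure D3:**
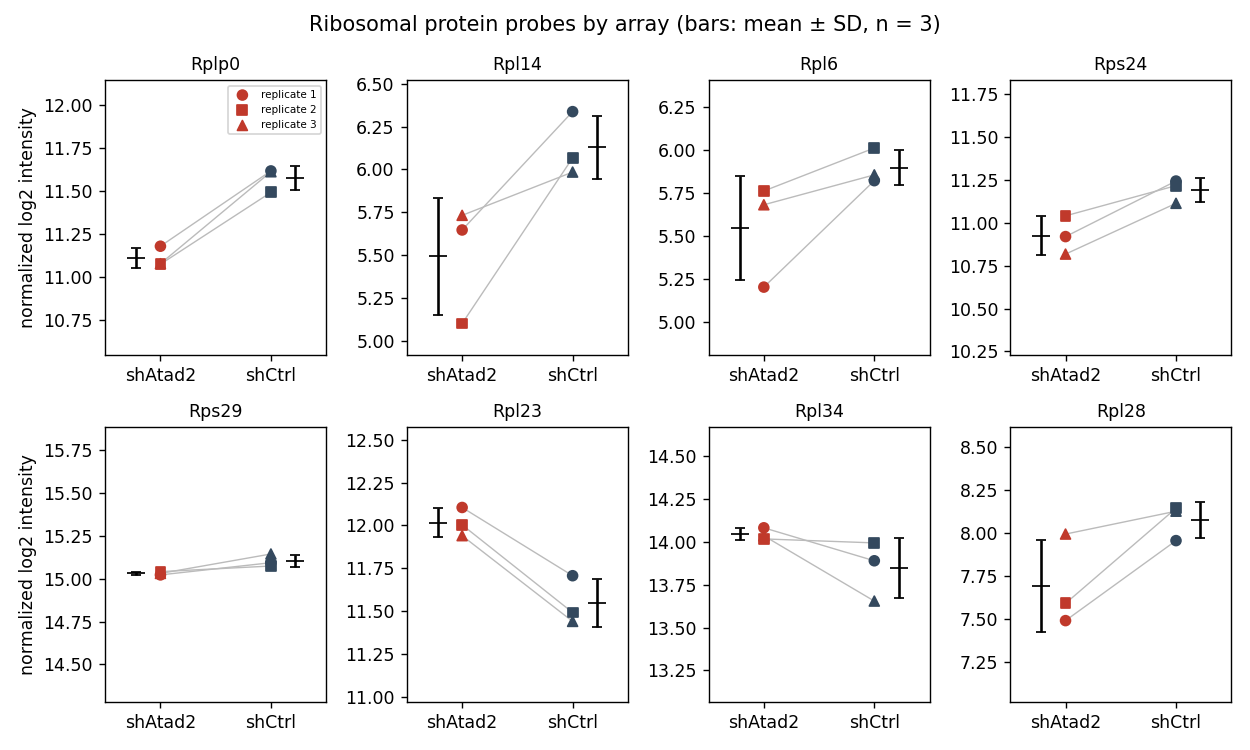
Normalized log2 intensity of 8 ribosomal protein probes on each array (vertical axis, each panel spanning the same range), shAtad2 left and shCtrl right, with grey lines joining arrays of the same replicate number and bars giving mean ± SD (n = 3). The groups are apart for all panels but Rpl28, by the most for Rplp0 and least for Rpl34 and Rps29.

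Rps24 and Rps19, small subunit proteins whose genes are mutated in Diamond-Blackfan anaemia in humans, each had a probe with a lower mean in shAtad2 cells that did not pass the test. The Rps24 probe of middle brightness read 10.92, 11.04 and 10.82 in shAtad2 cells, against 11.24, 11.22 and 11.11 in shCtrl cells. The groups did not overlap, with a change of -0.27 (SE 0.14, unadjusted p = 0.0899 in limma), while the brightest Rps24 probe had -0.01 (SE 0.14) and the dimmest 0.09 (SE 0.23). The dim Rps19 probe read 7.31, 7.46 and 6.20 in shAtad2 cells, against 7.47, 7.64 and 7.09 in shCtrl cells. The arrays of replicate 3 were low in both groups, and the change of -0.40 (SE 0.33) was -0.01 without the third shAtad2 array, -0.64 without the second and -0.20 without background correction. The bright Rps19 probe had a change of 0.08 (SE 0.13). Rps29, another small subunit protein, read 15.02, 15.04 and 15.03 in shAtad2 cells, against 15.09, 15.07 and 15.14 in shCtrl cells, a difference of -0.07 (SE 0.13) that left no overlap because the arrays of each group were so close.

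Rpl28 and Rpl21, large subunit proteins, and Rps15a, of the small subunit, were lower without passing the test. The dim Rpl28 probe read 7.49, 7.59 and 7.99 in shAtad2 cells, against 7.96, 8.14 and 8.13 in shCtrl cells, overlapping only at the third shAtad2 array, with a change of -0.38 (SE 0.17, unadjusted p = 0.0554 in limma), or -0.25 without background correction. The bright Rpl28 probe had -0.06 (SE 0.13). The 3 kept probes of Rpl21 were all lower, at -0.36 (SE 0.20), -0.24 (SE 0.16) and -0.18 (SE 0.15). Its dimmest probe read 7.66, 7.39 and 7.73 in shAtad2 cells, against 8.08, 8.21 and 7.57 in shCtrl cells, so the third shCtrl array fell among the shAtad2 arrays, and its change was -0.55 without that array and -0.23 without the second shCtrl array. Rps15a had 8.18, 8.13 and 8.33 in shAtad2 cells, against 8.38, 8.66 and 8.31 in shCtrl cells, a change of -0.24 (SE 0.15) with overlap, or -0.13 without the second shCtrl array.

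Probes of the same gene did not always go together. Of the 57 genes, 14 had at least 2 kept probes (34 probes), of which 7 had all probes lower, 3 had all probes higher and 4 had both signs. In 7 genes the brightest kept probe, at 13 or more, could be set against the dimmest, under 13. The dimmest probe had the lower change in 4 of them, Rpl28, Rps19, Rpl31 and Rpl27a, and the higher in Rpl23, Rpl38 and Rps24. The median change was -0.04 for the dimmest and 0.01 for the brightest probes. With another probe under 13, Rps24 (-0.27, against -0.01 for its brightest) and Rpl27a (0.010, against 0.006) would change sides. Ribosomal protein genes have many processed pseudogenes and retrocopies, and probe sequences were not used here, so which transcripts a dim probe reads was not tested.

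**Figure D4:**
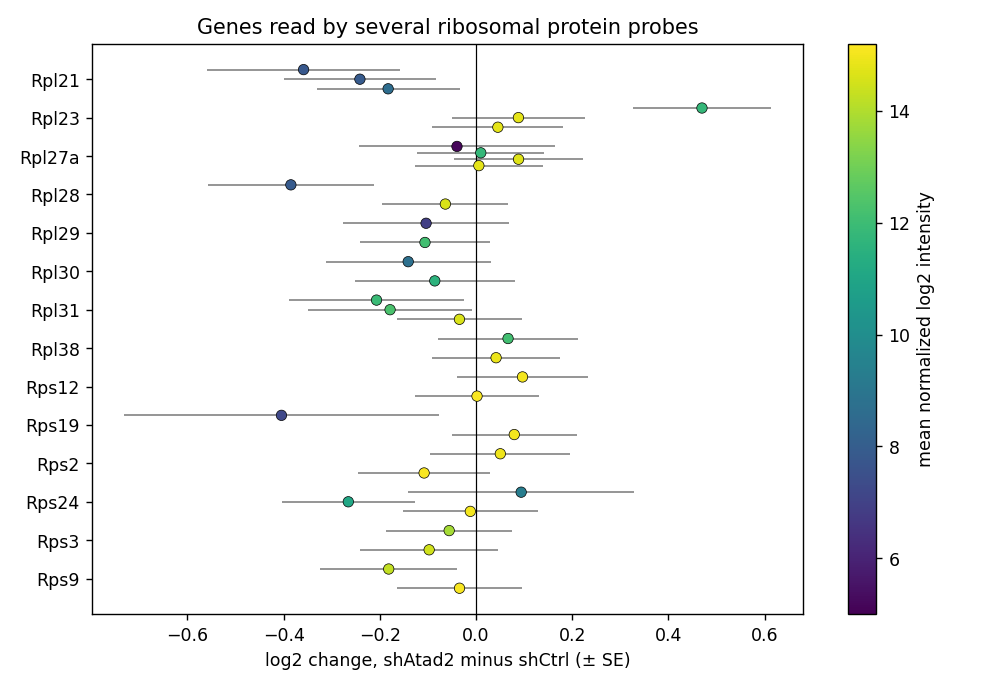
Log2 change (shAtad2 minus shCtrl, horizontal axis) ± SE of each kept probe of the 14 ribosomal protein genes with at least 2, coloured by mean normalized log2 intensity. The dim probes of Rpl28 (-0.38) and Rps19 (-0.40) lie left of their bright partners, and the dimmest Rpl23 probe (0.47) lies right of its own.

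Paralogs were set beside the proteins they resemble. Rpl22l1, which can take the place of Rpl22, had a change of -0.08 (SE 0.17), and Rpl22 had -0.03 (SE 0.16). Rpl3l, the form of Rpl3 found in striated muscle, was dim and read 4.72, 5.33 and 5.15 in shAtad2 cells, against 5.22, 5.10 and 5.80 in shCtrl cells, with a change of -0.30 (SE 0.24), where Rpl3 had 0.04 (SE 0.13). The Rpl3l change was -0.09 without the third shCtrl array, -0.13 without the first shAtad2 array and -0.08 without background correction. Rpl39l, known from the testis, was above background on no array, and Rpl39 had a change of 0.09 (SE 0.14).

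Rpl36al, a retrocopy of Rpl36a, had a change of -0.02 (SE 0.14) and Rpl36a one of 0.02 (SE 0.14). Rps4l had 0.04 (SE 0.17) and the X-linked Rps4x -0.15 (SE 0.14), or -0.08 without the first shAtad2 array. Rps27l, a target of p53, had -0.01 (SE 0.13), with 14.82, 14.90 and 14.80 in shAtad2 cells, against 14.94, 14.82 and 14.79 in shCtrl cells. Groups overlapped for every kept paralog and partner. The changes of Rpl36a, Rpl36al, Rps4l, Rps27l, Rpl22 and Rpl22l1 took either sign as arrays or normalization were varied.

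The dimmest kept member was a Rpl27a probe, above background on 2 shAtad2 arrays and 1 shCtrl array, with 5.02, 5.35 and 5.15 in shAtad2 cells, against 5.04, 5.62 and 4.98 in shCtrl cells and a change of -0.04 (SE 0.20). The other 3 Rpl27a probes had changes of 0.01, 0.01 and 0.09. Of the 16 probes not kept, 11 were above background on no array and 5 on 1 or 2. They left no kept probe for Rpl17, Rpl39l, Rps20, Rps23, Rps23rg1 and Rpsa, the laminin-binding protein of the small subunit, while Rpl4, Rpl23, Rpl37, Rplp0, Rplp2, Rps13 and Rps24 kept others. A probe that is not above background does not show that the mRNA was absent.

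Replicate by replicate, the median change of the members was -0.02, -0.03 and -0.04 in pairs 1, 2 and 3. All 3 pairs agreed in sign for 7 probes that were higher (17.1% of all probes) and 13 that were lower (16.5% of all probes). The arrays of replicate 3, which stood apart over all probes, lay within 0.3 log2 units of the mean of the other arrays of their group, in both groups, for 59 of 77 members (76.6%), against 37.3% of all probes. The share among other bright probes was not taken. Rps19 (dim probe) and Rps24 (dimmest kept probe) went past 0.3 the same way in both groups.

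The changes were also set beside the motif letters. Kept probes of genes with CTTTC near a start had a median change of -0.01 (32 probes, 17 lower), and those of matched genes without it -0.02 (32 probes, 19 lower). Genes with CCGGAAG had a median of 0.01 (28 probes, 12 lower), and those without -0.03 (36 probes, 24 lower).

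Other parts of the translation machinery were read from lists of genes, and no probe of any list was called by limma (0 in each). Elongation factors and other genes with TOP mRNAs had 30 kept probes, 15 higher and 15 lower in shAtad2 cells, with a median change of 0.00. Over all probes, 50.2% were higher. None of the 30 had an unadjusted p under 0.05 in limma, against 7.36% of all probes. Eef1a1, which carries aminoacyl-tRNA to the ribosome, had the smallest p of that list on a dim probe, with a change of -0.26 (SE 0.15) that was -0.07 without background correction and -0.15 without the first shAtad2 array, and its bright probes had 0.02 (SE 0.13) and 0.02 (SE 0.13). Nap1l1, a histone chaperone, had the widest change on its dimmest probe, -0.35 (SE 0.37), which lay between -0.82 without the third shAtad2 array and -0.06 without the second. Initiation factors had 48 kept probes (22 higher, 26 lower), a median change of -0.01 and 3 lower at an unadjusted p under 0.05 (3.50% of all probes were).

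Eif6, which keeps large subunits from joining too early, had the smallest p of the initiation factors on a dim probe. It read 5.72, 5.95 and 5.58 in shAtad2 cells, against 6.27, 6.22 and 6.16 in shCtrl cells, a change of -0.46 (SE 0.15, unadjusted p = 0.0142 and adjusted p = 0.573 in limma) without overlap, which was -0.15 without background correction. A brighter Eif6 probe had -0.15 (SE 0.14) and overlapped. The regulators of ribosomal protein synthesis had 28 kept probes (12 higher, 16 lower) and a median change of -0.03. Mtor, the kinase that controls TOP mRNAs, read 6.90, 7.09 and 7.26 in shAtad2 cells, against 7.75, 7.40 and 7.86 in shCtrl cells, on 1 probe. The groups did not overlap and the change was -0.59 (SE 0.17, unadjusted p = 0.00953 and adjusted p = 0.53 in limma), or -0.34 without background correction, while the brighter Mtor probe had 0.07 (SE 0.15) and overlapped. Larp1, which binds the TOP tract, had -0.32 (SE 0.16), -0.21 (SE 0.15) and 0.14 (SE 0.14) on 3 probes with overlap, and was named after its values were seen.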

How the data were processed

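The authors deposited an unnormalized bead intensity and a detection p-value per probe for total RNA of 3 shAtad2 and 3 shCtrl samples, together with processed intensity. The steps of the deposited p-values were those of ranks among 936 negative controls. The processed values had the same distribution on every array (median 141.1), as quantile normalization gives, while the scanner software and the steps behind them are not given in the sources used. No columns of the authors' comparisons were used.

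Unnormalized intensity was corrected with normexp from the detection p-values, raised by an offset of 16 and quantile-normalized on a log2 scale with neqc (limma 3.58.1, R 4.3.3). The offset understates the change of dim probes. Probes above background (p-value under 0.05) on at least 3 of 6 arrays were kept. Of 45281 probes, 34885 carried 1 symbol in the platform annotation, 18 several and 10378 none. Each kept probe was compared, shAtad2 minus shCtrl, by the moderated two-sided test of limma, with a threshold of 0.05 on the p adjusted over all kept probes (Benjamini-Hochberg). The number of arrays limits the precision. In simulated data with 200 of 18085 probes changed, the test found 1.21% of those of 1.41-fold, 39.9% of those of 2-fold and 86.9% of those of 4-fold, with 4.32% false calls. The changed probes were drawn from all kept probes, whose median SD was 0.20 in shAtad2 and 0.21 in shCtrl cells. The members had 0.08 and 0.10, so these shares do not hold for the members.

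Deviations of same-numbered replicates from their group means correlated at 0.25, 0.25 and 0.53, so the numbers of the titles were treated as pairs in an alternative fit, although shAtad2 1 with shCtrl 2 (0.26) and shAtad2 2 with shCtrl 1 (0.31) correlated as well. Alternatives varied the background correction, normalization, offset, filter, probe choice, variance model, block and arrays. The fit without replicate 3 of both groups and the split by brightness were chosen after seeing the data.

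The members, the lists and the rule for named genes were chosen with earlier results of these data known, so no list was tested. Named were the 10 members with the smallest p, the 3 highest and 3 lowest changes, the 3 brightest and 3 dimmest, paralogs with their partners, the member of each other list with the smallest p and with the largest change, and Atad2. Several core ribosomal proteins were not analysed here. Other probes were named after their values were seen, as members of a gene, a class or a count already given.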

Additional observations from a re-analysis of the deposited data

How the results depend on the processing

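No ribosomal protein probe passed the threshold under any of the 10 alternatives, when any 1 array was left out or without replicate 3 of both groups. Hardly any probe of the array passed either. Over all probes, 1 passed without background correction, with offset 50, with the processed values and with the intensity trend in the variance. With cyclic loess, median scaling, the other filters, the brightest probe per gene or the block, 0 passed over all probes. With the replicate number as a block, 0 of 77 passed, the smallest adjusted p was 0.222 and 4 (1 higher, 3 lower) had an unadjusted p under 0.05, against 12.2% of all probes, and the block changed no call. The median change, -0.019 in the fit reported, was 0.017 with cyclic loess, -0.055 with median scaling and -0.002 without replicate 3 of both groups, and lay between -0.037 and -0.02 when 1 array was left out. The number of probes higher in shAtad2 cells was 43 of 77 with cyclic loess, 25 with median scaling and 37 without replicate 3 of both groups, and 28 to 36 when 1 array was left out. The median of members under 13 was -0.061 with no filter and -0.194 with median scaling, and -0.173 to -0.109 with 1 array left out, and that of the brighter members was 0.069 with cyclic loess, 0.022 without replicate 3 of both groups and -0.009 to 0.018 with 1 array left out. Probes not overlapping numbered 13 with cyclic loess, against 7. Changes of dim probes were smaller without background correction, where Rpl14 had -0.196, Rpl6 -0.101, Rpl3l -0.083, Eef1a1 -0.07 and Eif6 -0.154, and Rplp0 (-0.443) and Rpl23 (0.453) hardly moved.

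Small changes took the other sign in some settings, and the cause was not tested. With cyclic loess, Rps9 had 0.067, Rps2 0.004, Rpl36a -0.007 and Rps27l 0.071. With median scaling, Rpl36a had -0.075 and Rps4l -0.042. With the deposited processed values, Rps12 rounded to 0, which shows no change of sign. Without replicate 3 of both groups, Rpl22 had 0.027, Rpl22l1 0.045 and Rpl36a -0.039. With 1 array left out, Rps12 ranged from -0.025 to 0.028, the dim Rpl27a probe from -0.157 to 0.165, Rpl22 from -0.139 to 0.07, Rpl22l1 from -0.191 to 0.073, Rps4l from -0.064 to 0.175, Rpl36a from -0.038 to 0.066, Rpl36al from -0.072 to 0.036 and Rps27l from -0.04 to 0.036. Atad2 kept its sign, at -0.269 without background correction, -0.29 with the processed values and -0.854 to -0.718 with 1 array left out.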

Other observations

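The ribosomal proteins of the mitochondrion, encoded in the nucleus and built into a separate ribosome, had 113 kept probes. Of these probes, 40 were higher and 73 lower in shAtad2 cells, with a median change of -0.04, where 50.2% of all probes were higher. None was called by limma, and 4 had an unadjusted p under 0.05 (1 higher, 3 lower), where 7.36% of all probes had. Mrps18a read 9.93, 9.91 and 9.92 in shAtad2 cells, against 10.57, 10.74 and 10.47 in shCtrl cells. The groups were far apart for their spread, and the change of -0.67 (SE 0.14) had an adjusted p of 0.445. Genes of ribosome assembly had 57 kept probes, 18 higher and 39 lower, with a median change of -0.05. None had an unadjusted p under 0.05 in limma, against 7.36% of all probes. The split by direction of the mitochondrial and of the assembly probes was not counted under another normalization. Tcof1, which serves ribosomal RNA transcription, was lower on all 3 of its kept probes, by -0.34 (SE 0.18), -0.31 (SE 0.17) and -0.36 (SE 0.20), and the groups overlapped on each. Without background correction the widest was -0.18 and the first -0.10, and the first was -0.19 without the third shAtad2 array.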
